A study of Homo sapiens with 4 samples.

Results

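The genes described here are effectors and RNA sensors of the interferon response, the transcripts that cells raise when they detect viral nucleic acid or meet interferon. They were chosen by symbol from a list of 38 names, with the STAT, IRF and HLA genes left out. The rule uses no measured value, but the list was drawn up with earlier results of these data known. Of the 30716 genes of the deposited table, 37 carried one of these symbols, and CMPK2 was not analysed here. The libraries came from KYSE30, an established line of human esophageal squamous cell carcinoma grown in serum-containing medium. The cells labelled negative control (shNC) carried a control short hairpin RNA. Those labelled YY1 knockdown (shYY1) carried one that targets YY1, a DNA-binding zinc finger protein that activates or represses genes. Both groups were stable lines selected with puromycin, and the labels name no interferon, infection or other stimulus for either. Each group had 2 libraries. The labels do not say whether these were separate cultures, so p-values measure the spread between these libraries only, which may be technical, and loss of YY1 cannot be told apart from anything else the hairpins do.

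As background, the helicases RIG-I (encoded by DDX58) and MDA5 (IFIH1) recognise viral RNA in the cytosol and signal through MAVS to the kinase TBK1 and the factor IRF3, which turn on interferon genes. Secreted type I and type III interferons act through receptors and the kinases JAK1 and TYK2 on transcription factors that bind the interferon-stimulated response element of their targets. Several targets, IFIT2 and ISG15 among them, are also known to respond to IRF3 directly. The effectors block viral translation, degrade RNA, trap virions at membranes or modify proteins with the ubiquitin-like protein ISG15.

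The bases upstream of 6 of these genes are printed first, because 5 of them rose in the comparison below and IFIT5 is a neighbour of IFIT3 that did not pass the test. Each run holds the 250 bases before the annotated transcription start, 5′ to 3′ on the plus strand, from RefSeq (build GRCh38.p14). Capitals mark a core of the interferon-stimulated response element, GAAA, any 2 bases and GAAA again, on either strand, with overlapping matches joined. They lie at chr10:89327747-89327996 for IFIT3 (the first of its annotated starts), chr1:1013247-1013496 for ISG15, chr4:88456869-88457118 for HERC5, chr15:88638766-88639015 for ISG20, chr12:112906712-112906961 for OAS1 and chr10:89414318-89414567 for IFIT5.
IFIT3: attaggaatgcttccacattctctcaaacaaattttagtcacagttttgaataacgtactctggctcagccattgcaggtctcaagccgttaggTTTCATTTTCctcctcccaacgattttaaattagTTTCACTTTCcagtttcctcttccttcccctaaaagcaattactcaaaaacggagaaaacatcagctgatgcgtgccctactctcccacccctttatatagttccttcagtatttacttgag
ISG15: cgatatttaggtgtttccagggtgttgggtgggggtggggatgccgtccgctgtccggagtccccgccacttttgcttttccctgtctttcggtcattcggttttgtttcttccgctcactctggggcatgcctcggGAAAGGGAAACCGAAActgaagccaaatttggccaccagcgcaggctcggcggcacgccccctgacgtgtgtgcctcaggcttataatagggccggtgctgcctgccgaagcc
HERC5: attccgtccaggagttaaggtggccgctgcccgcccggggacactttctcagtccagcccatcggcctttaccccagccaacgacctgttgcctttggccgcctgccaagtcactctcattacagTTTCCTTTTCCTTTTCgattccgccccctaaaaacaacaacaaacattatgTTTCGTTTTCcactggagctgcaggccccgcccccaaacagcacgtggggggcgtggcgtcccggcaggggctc
ISG20: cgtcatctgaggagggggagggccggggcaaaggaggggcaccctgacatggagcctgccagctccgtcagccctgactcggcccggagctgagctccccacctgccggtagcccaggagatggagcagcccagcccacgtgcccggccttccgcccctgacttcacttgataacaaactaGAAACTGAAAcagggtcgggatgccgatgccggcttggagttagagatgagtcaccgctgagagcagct
OAS1: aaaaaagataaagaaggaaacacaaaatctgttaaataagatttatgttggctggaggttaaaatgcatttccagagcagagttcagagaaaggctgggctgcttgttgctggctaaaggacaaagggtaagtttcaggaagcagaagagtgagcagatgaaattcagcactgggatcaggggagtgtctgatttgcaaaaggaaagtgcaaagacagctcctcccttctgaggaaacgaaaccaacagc
IFIT5: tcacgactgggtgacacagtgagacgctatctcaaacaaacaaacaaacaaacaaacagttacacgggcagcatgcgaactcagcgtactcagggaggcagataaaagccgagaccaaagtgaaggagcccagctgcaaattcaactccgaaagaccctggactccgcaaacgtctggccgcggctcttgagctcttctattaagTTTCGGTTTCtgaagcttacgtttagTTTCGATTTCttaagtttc

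IFIT3 held 2 matches, beginning 156 and 122 bases before the start, and ISG15 held 2 that overlap, beginning 113 and 107 bases before it. HERC5 held 3 matches at 125, 119 and 74 bases, ISG20 held 1 at 69 bases, and the printed stretch of IFIT5 held 2 at 45 and 19 bases. The stretch of OAS1 held no match to these letters. RefSeq windows of 300 bases, 250 before and 50 after a start, were found for 29 of the 37 genes, DDX58 under its current symbol RIGI, and not for IFIT2, OASL, DHX58, IFITM2, OAS2, MX2, TRIM22 and USP18. The word was present in at least 1 window of 22 of these 29 genes (75.9%), beside 4.38% of the 27305 symbols in the whole table. It was present in 5 of 6 genes that rose, in 12 of 17 that were tested and did not pass, and in 5 of 6 that were too low to test. The genes that rose with the word included MX1 and HERC5, which were tested only through their counts in shYY1. Matches were thus frequent in all 3 sets. A core of the YY1 site, AA, any base and ATGGC on either strand, was matched in 1 of the 29 genes, CXCL10. It was matched in 6.58% of all 35116 windows, which is a share of windows and not of genes. A match is a description of the letters and not evidence of binding.

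Total counts per library ranged from 67390336 to 72499865, and a count of 3, used below as the floor for genes at 0, was worth 0.0416 to 0.0439 CPM (counts scaled to library size). YY1 itself had 8147 and 7960 counts in shNC and 2606 and 2344 in shYY1, a log2 fold change of -1.67 ± 0.088 (SE; edgeR adjusted p = 6.18e-05). All 12 squamous markers had counts, with summed levels of 1402 to 1455 CPM in shNC and 1750 to 1809 CPM in shYY1. Most of this came from ITGA6, SFN and PERP. KRT5, a basal keratin, had only 25 to 45 counts per library, KRT17 had 83 to 119 and KRT14 had 256 to 337. KRT6A had 2204 to 2739. Among the 12 markers PERP, a desmosomal protein, rose by 0.70 on the log2 scale (edgeR adjusted p = 0.00197), and the part of this shift in the results below was not tested. The labels' extraction protocol mentions retina, so 14 retina markers were sought: 6 had a row, their summed level was 0.854 to 1.66 CPM, and RLBP1 was at 0. Of 14 immune markers, whose cells also express interferon-stimulated genes, 8 had a row, and PTPRC, CD3E and NKG7 were at 0 in every library. Their summed level was 12.5 and 15.1 CPM in shNC and 12.2 and 13.1 CPM in shYY1, mostly CSF1R and CD68. Fibroblast markers (5 of 9 with a row) summed to 4.75 to 7.15 CPM and endothelial markers (4 of 7) to 4.36 to 5.18 CPM.

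The effector genes were a low but mostly readable set in these cells. Their summed level was 296 and 291 CPM in the shNC libraries and 370.0 and 369.8 CPM in the shYY1 libraries, with no overlap between groups. Such separation was not particular to them. The squamous markers also summed higher in shYY1 without overlap. So did the other interferon-stimulated genes, the sensing adaptors and kinases and the negative regulators, listed below. The receptor, JAK, STAT and IRF list and the retina and endothelial markers summed lower without overlap. In bulk RNA, more RNA per cell and more cells with the RNA cannot be told apart. Of the 37 genes, 28 passed the filter on low counts and 9 did not. In edgeR's quasi-likelihood test, adjusted by Benjamini-Hochberg over all 18035 tested genes, 8 rose in shYY1 (IFIT2, OASL, OAS1, IFIT3, MX1, ISG20, ISG15 and HERC5), none fell and 20 did not pass. Of all tested genes, 5.05% were called higher and 4.90% lower, beside 8 of 28 effector genes (28.6%) called higher. MX1 and HERC5 passed the filter only through shYY1 and so had to differ; of the 26 genes with counts in both groups, 6 rose (23.1%), above the 5.05% of all tested genes. At an unadjusted p under 0.05 there were 14 of the 26, beside 25.1% of all tested genes. The median log2 fold change was 0.43 over the 28 and 0.39 over the 26, beside -0.01 over all tested genes. Both shYY1 libraries lay above both shNC libraries in 17 of the 26 genes, beside 26.8% of all tested genes, and below in 3, beside 28.1%.

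**Figure D1:**
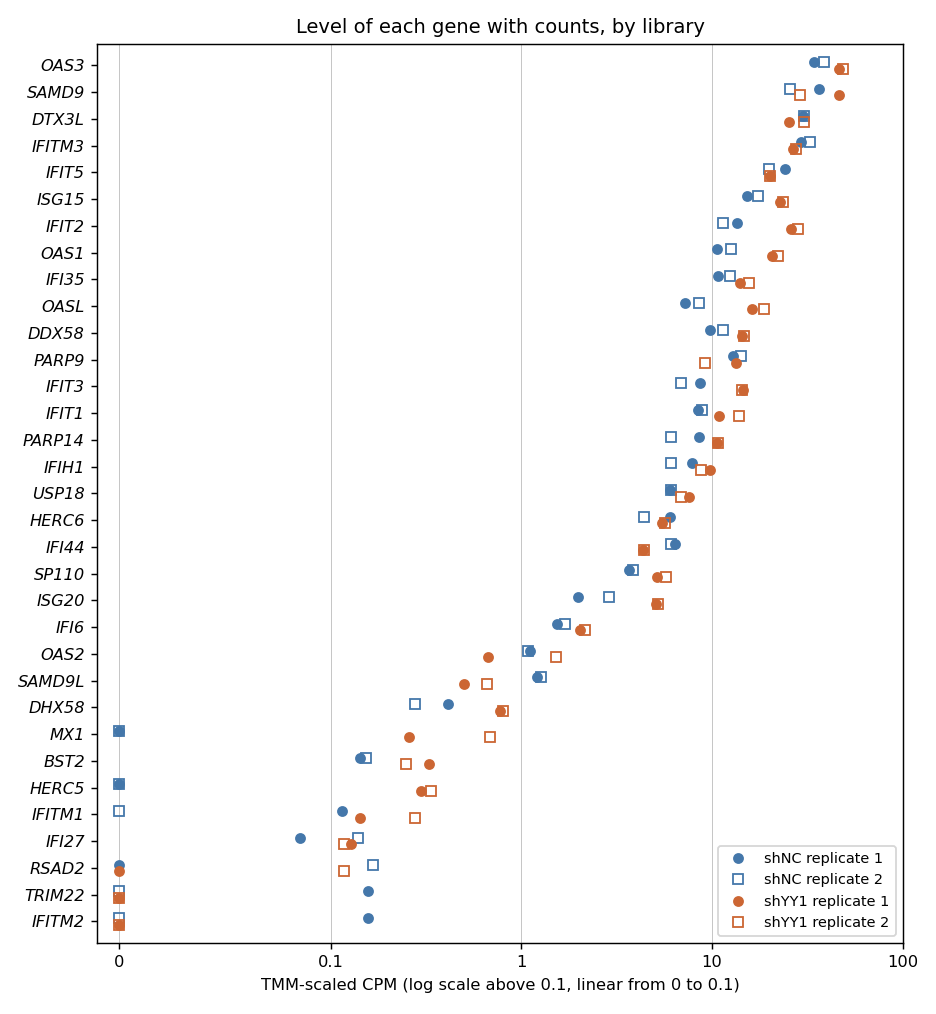
Level of the 33 effector genes with at least 1 count, in TMM-scaled CPM (horizontal axis, log scale above 0.1 and linear from 0 to 0.1), with 1 point per library (circles replicate 1, squares replicate 2). IFIT2, OASL, OAS1, IFIT3 and ISG20 show shYY1 points clear of the shNC points, and MX1 and HERC5 sit at 0 in both shNC libraries.

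The IFIT proteins bind viral RNA and slow its translation, and their genes lie together on chromosome 10. IFIT2 had 948 and 827 counts in shNC and 1816 and 1922 in shYY1. Both shYY1 libraries held about the same level, well above both shNC libraries. The level went from 12.5 ± 1.46 to 27.0 ± 1.62 CPM (SD, n = 2 each), a 2.16-fold rise with a log2 fold change of 1.11 ± 0.128 (SE; edgeR adjusted p = 0.00173). IFIT3, which stabilises complexes of IFIT proteins, had 603 and 494 counts in shNC and 1016 and 979 in shYY1, again without overlap. It rose 1.86-fold, from 7.73 ± 1.25 to 14.4 ± 0.0897 CPM (SD), with a log2 fold change of 0.90 ± 0.161 (SE; edgeR adjusted p = 0.0102).

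IFIT1, which recognises the cap of viral mRNA, had 594 and 638 counts in shNC and 760 and 941 in shYY1. The groups did not overlap, but its log2 fold change of 0.51 ± 0.166 (SE) did not pass the test (edgeR adjusted p = 0.0925). IFIT5 had 1686 and 1441 counts in shNC and 1413 and 1372 in shYY1. Scaled to library size, its shYY1 libraries lay between the shNC libraries, and its log2 fold change was -0.13 ± 0.125 (SE; edgeR adjusted p = 0.584). In GENCODE 29, 65 of the 4101 exon bases of IFIT2 are shared with LIPA on the opposite strand. LIPA, a lysosomal lipase, had 17051 and 17395 counts in shNC and 20520 and 19983 in shYY1, with a log2 fold change of 0.27 (edgeR adjusted p = 0.0546). Its part in the IFIT2 counts was not tested, since the strand setting of the counting is not given in the sources used here.

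The OAS enzymes make oligoadenylate that activates RNase L, an endonuclease that degrades RNA, whereas OASL lacks that activity and acts on RIG-I signalling. OASL had 508 and 616 counts in shNC and 1136 and 1281 in shYY1, so that even the lower shYY1 library lay far above the higher shNC library. It rose 2.21-fold, from 7.90 ± 0.909 to 17.5 ± 1.83 CPM (SD, n = 2 each), with a log2 fold change of 1.14 ± 0.153 (SE; edgeR adjusted p = 0.0031). OAS1 had 746 and 911 counts in shNC and 1447 and 1514 in shYY1, also without overlap. It rose 1.84-fold, from 11.6 ± 1.40 to 21.4 ± 1.11 CPM (SD), with a log2 fold change of 0.88 ± 0.134 (SE; edgeR adjusted p = 0.00544).

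OAS3, the largest of the family and a main activator of RNase L, had 2408 and 2799 counts in shNC and 3244 and 3299 in shYY1. The groups did not overlap, but at a log2 fold change of 0.37 ± 0.10 (SE) its adjusted p of 0.0519 (edgeR) fell just short of the threshold. With DESeq2 it was 0.0132, with limma-trend on CPM 0.0417, and over all alternatives it ranged from 0.0132 to 0.298. OAS2 had 78 and 78 counts in shNC and 47 and 104 in shYY1. Its shYY1 libraries lay on both sides of the shNC libraries, with a log2 fold change of -0.003 ± 0.455 (SE; edgeR adjusted p = 0.998). OAS1, OAS3 and OAS2 are neighbours on chromosome 12, and OASL lies farther along it.

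**Figure D2:**
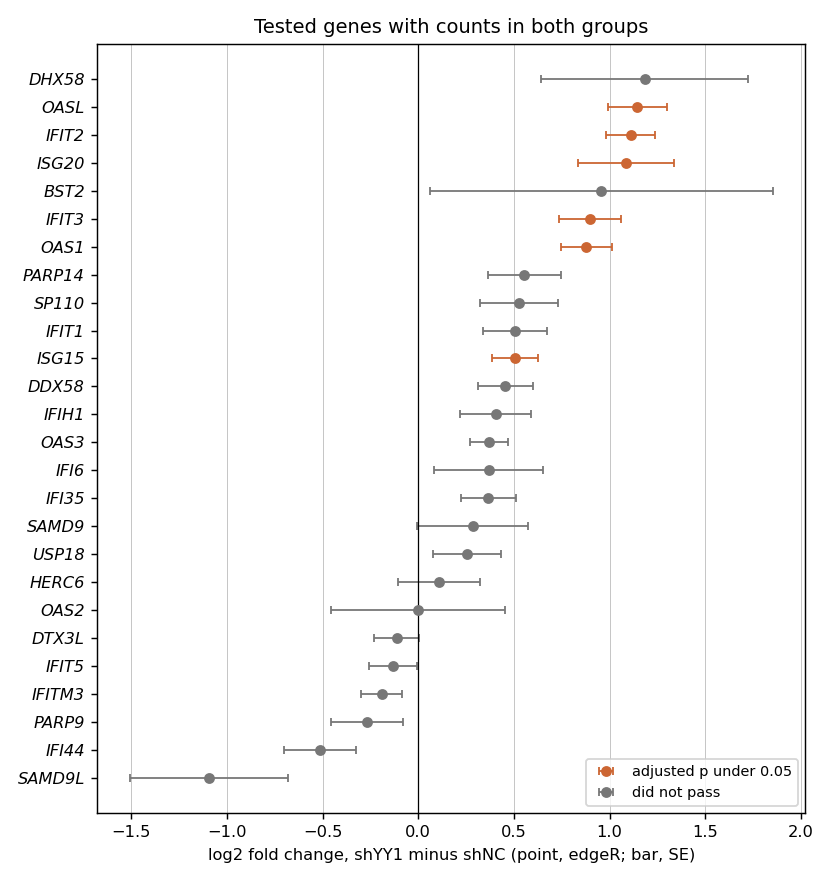
Log2 fold change of shYY1 over shNC (horizontal axis) for the 26 tested effector genes with counts in both groups, as edgeR's estimate with its SE. The 6 genes that passed the test (orange) lie between 0.50 for ISG15 and 1.14 for OASL, and the grey genes, which did not pass, reach from -1.10 for SAMD9L to 1.18 for DHX58.

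ISG15 is conjugated to proteins and also secreted, HERC5 is its main ligase, and USP18 removes it and restrains the interferon receptor. ISG15 had 1066 and 1259 counts in shNC and 1596 and 1613 in shYY1. The shYY1 libraries were nearly equal and lay above both shNC libraries. It rose 1.42-fold, from 16.3 ± 1.58 to 23.2 ± 0.637 CPM (SD, n = 2 each), with a log2 fold change of 0.50 ± 0.12 (SE; edgeR adjusted p = 0.033). USP18 had 421 and 441 counts in shNC and 534 and 469 in shYY1, and its log2 fold change of 0.25 ± 0.175 (SE) did not pass (edgeR adjusted p = 0.424). HERC6, a relative and neighbour of HERC5, had 420 and 316 counts in shNC and 386 and 389 in shYY1, with a log2 fold change of 0.11 ± 0.215 (SE; edgeR adjusted p = 0.822).

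HERC5 and the GTPase MX1, which blocks the entry or transcription of many viruses, were at 0 counts in both shNC libraries. HERC5 had 21 and 23 counts in shYY1, and MX1 had 18 and 47. The MX1 counts came mostly from 1 of the shYY1 libraries. With 3 counts per shNC library as the floor, the mean shYY1 level was 7.53-fold that floor for HERC5 and 11.2-fold for MX1. The spread of the shYY1 counts is not part of these ratios, and MX1 had 0.256 CPM in shYY1 replicate 1 and 0.688 CPM in replicate 2. EdgeR called both (adjusted p = 0.0419 for HERC5 and 0.0243 for MX1). DESeq2 gave no adjusted p for either, and limma-trend on log2 CPM did not call them (adjusted p = 0.088 and 0.053). Within a group, counts of this size were sometimes matched by 0: among genes whose higher library had 18 to 47 counts, 8.45% in shNC and 7.63% in shYY1 were at 0 in the other library. Over all genes, 10 were at 0 in both shNC libraries with at least 18 counts in both shYY1 libraries, and 7 had the opposite pattern. The other MX gene, MX2, was at 0 in all 4 libraries.

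ISG20, an exonuclease that degrades RNA, had 138 and 207 counts in shNC and 359 and 354 in shYY1. The shYY1 libraries were nearly equal and the shNC libraries were spread, but without overlap between groups. It rose 2.13-fold, from 2.42 ± 0.636 to 5.15 ± 0.0519 CPM (SD, n = 2 each), with a log2 fold change of 1.09 ± 0.251 (SE; edgeR adjusted p = 0.0287). RSAD2, the radical SAM enzyme viperin, had 0 and 12 counts in shNC and 0 and 8 in shYY1 and was too low to test.

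None of the 3 RNA sensors passed edgeR's test. Each had both shYY1 libraries above both shNC libraries, a pattern seen in 26.8% of all tested genes. DDX58 had 686 and 821 counts in shNC and 1013 and 999 in shYY1, a log2 fold change of 0.46 ± 0.141 (SE; edgeR adjusted p = 0.0775). DESeq2 called it (adjusted p = 0.047), and over all alternatives its adjusted p ranged from 0.0379 to 0.282. IFIH1 had 550 and 437 counts in shNC and 682 and 594 in shYY1, with a log2 fold change of 0.40 ± 0.186 (SE; edgeR adjusted p = 0.219). DHX58, the regulator LGP2 of both, was much lower, with 29 and 20 counts in shNC and 54 and 55 in shYY1. Its log2 fold change of 1.18 ± 0.54 (SE) was as large as that of OASL but far less precise (edgeR adjusted p = 0.215).

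Among genes for membrane factors that keep viruses from entering or leaving cells, none passed the test. IFITM3, which restricts viral entry from endosomes, had 2047 and 2342 counts in shNC and 1860 and 1884 in shYY1. Its shYY1 libraries lay below both shNC libraries in CPM, with a log2 fold change of -0.19 ± 0.107 (SE; edgeR adjusted p = 0.315). BST2, or tetherin, which holds budding virions at the cell surface, had 10 and 11 counts in shNC and 23 and 17 in shYY1, with a log2 fold change of 0.96 ± 0.897 (SE; edgeR adjusted p = 0.581). IFITM1 had 8 and 0 counts in shNC and 10 and 19 in shYY1, and IFITM2 had 11 and 0 in shNC and 0 in both shYY1 libraries. Annotated exons of IFITM1 and IFITM2 share 351 bases on the same strand and the IFITM genes are close in sequence, so their low counts may be split or shared.

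PARP9 and DTX3L act as a pair that modifies histones and promotes interferon responses, PARP14 is an ADP-ribosyltransferase of the same gene cluster, and none of the 3 passed. PARP14 had 596 and 437 counts in shNC and 745 and 736 in shYY1, with a log2 fold change of 0.55 ± 0.192 (SE; edgeR adjusted p = 0.108). PARP9 had 902 and 1027 counts in shNC and 940 and 626 in shYY1, and DTX3L 2086 and 2197 in shNC and 1786 and 2070 in shYY1. Their groups overlapped after scaling, with log2 fold changes of -0.27 ± 0.188 and -0.11 ± 0.117 (SE; edgeR adjusted p = 0.437 and 0.624). Their opposite-strand exons share 217 bases. Of the growth-restraining proteins of the SAMD9 locus on chromosome 7, SAMD9 had 2541 and 1841 counts in shNC and 3249 and 1982 in shYY1, with 1 library of each group far above the other. Its log2 fold change was 0.28 ± 0.29 (SE; edgeR adjusted p = 0.637). SAMD9L went the other way, with 85 and 91 counts in shNC and 35 and 45 in shYY1, a log2 fold change of -1.10 ± 0.413 (SE) that did not pass (edgeR adjusted p = 0.137).

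The genes named for interferon induction were mixed. IFI44 had 447 and 440 counts in shNC and 306 and 299 in shYY1, and both groups were tight and did not overlap. Its log2 fold change of -0.52 ± 0.189 (SE) did not pass edgeR's test (adjusted p = 0.126), but limma-trend on log2(FPKM + 1) called it lower (-0.39, adjusted p = 0.0422). IFI35 had 748 and 895 counts in shNC and 987 and 1072 in shYY1, with a log2 fold change of 0.37 ± 0.143 (SE; edgeR adjusted p = 0.152). IFI6, a mitochondrial protein in this family, had 108 and 122 counts in shNC and 142 and 147 in shYY1, with a log2 fold change of 0.37 ± 0.285 (SE; edgeR adjusted p = 0.487). SP110, a nuclear body protein, had 256 and 279 counts in shNC and 361 and 390 in shYY1, with a log2 fold change of 0.53 ± 0.203 (SE; edgeR adjusted p = 0.145).

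Some genes that are strong markers of an interferon response in many cell types were near or at 0 in both groups. CXCL10, a chemokine that recruits T cells, was at 0 counts in all 4 libraries, as were IFI44L, MX2 and XAF1, a binding partner of the apoptosis inhibitor XIAP. TRIM22, a ubiquitin ligase, had 11 and 0 counts in shNC and 0 in both shYY1 libraries. IFI27 had 6 and 10 counts in shNC and 9 and 8 in shYY1. The highest count of any of the 9 untested genes was 19, in IFITM1, and all 9 were too low to test in the main fit. A count of 0 allows up to 3 counts, and such floors cover counting error only.

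Per gene length, in the FPKM values that the authors deposited, 18 of the 37 genes averaged at least 1 FPKM over the 4 libraries. IFITM3 stood highest (22.9 ± 0.837 FPKM in shNC and 19.3 ± 0.207 in shYY1, SD, n = 2 each). ISG15 followed with 16.1 ± 0.944 FPKM in shNC and 22.0 ± 0.194 in shYY1, so that their order was reversed between the groups. IFI35 averaged 5.63, IFIT5 4.40 and OAS3 4.30 FPKM. These 4-library averages of OAS3, DTX3L (4.22) and SAMD9 (4.21) were closer to each other than the libraries of SAMD9 were. IFIT2 and OASL were at 2.63 and 1.91 FPKM in shNC and at 5.46 and 4.09 in shYY1. Of the 8 genes that rose, 5 averaged at least 1 FPKM; ISG20 averaged 0.435 and HERC5 and MX1 0.0268 and 0.0219.

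**Figure D3:**
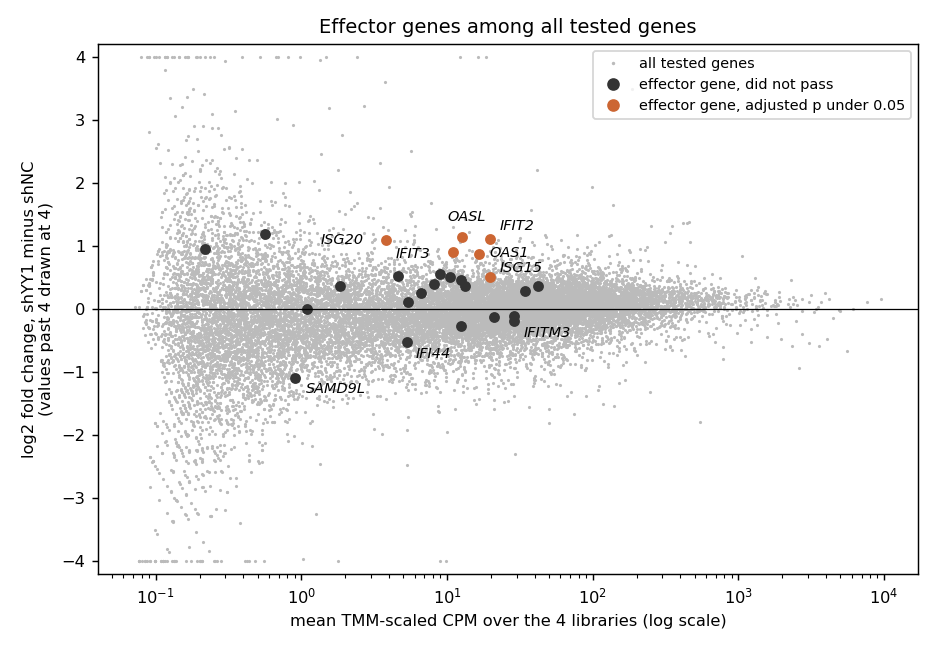
Log2 fold change of shYY1 over shNC (vertical axis, values past 4 drawn at 4) against the mean level over the 4 libraries in TMM-scaled CPM (log axis), with all 18035 tested genes in grey and the 26 tested effector genes with counts in both groups as large points. The genes that passed the test (orange) lie at the upper side of the grey cloud at their level, and several genes with equal or higher levels, such as IFITM3, lie near 0.

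Each of the 4 libraries was left out in turn to see which calls rest on a single one. IFIT2, OASL, OAS1 and IFIT3 passed every time, with log2 fold changes from 1.00 to 1.24, from 1.03 to 1.27, from 0.76 to 1.01 and from 0.75 to 1.07. ISG20 lost its call without shNC replicate 1 (0.84, edgeR adjusted p = 0.0992). ISG15 kept its call only without shNC replicate 2. Its adjusted p reached 0.0866 without shNC replicate 1, 0.0913 without shYY1 replicate 1 and 0.1302 without shYY1 replicate 2 (edgeR), at log2 fold changes from 0.41 to 0.61. MX1 was not called when shNC replicate 1 was left out (edgeR adjusted p = 0.0566) or when shYY1 replicate 2, the library with its 47 counts, was left out (edgeR adjusted p = 0.180). HERC5 lost its call in each of the 4 fits (edgeR adjusted p from 0.0802 to 0.127). Such a fit has a single library in 1 group, which is taken to vary like the others.

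**Figure D4:**
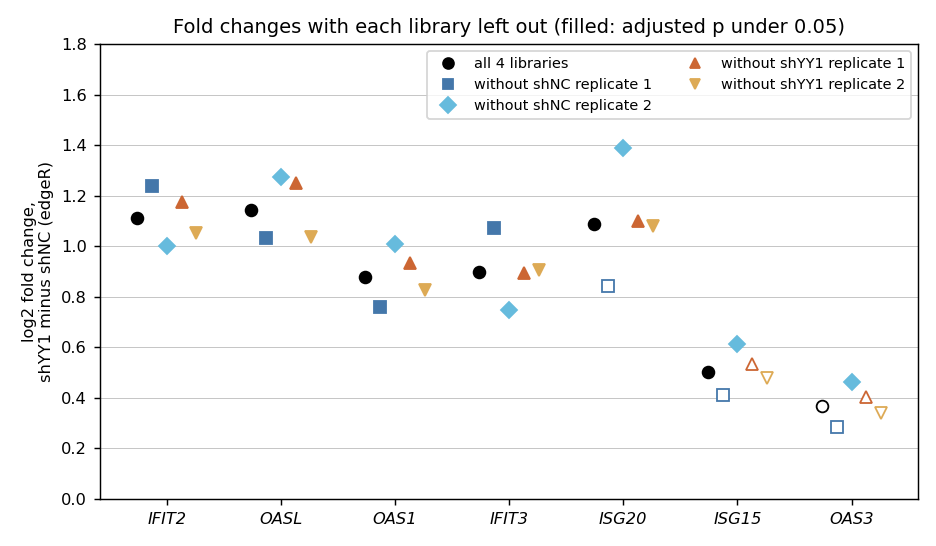
Log2 fold change of shYY1 over shNC (vertical axis) for 7 effector genes in the fit with all 4 libraries (black) and with each library left out, filled where the adjusted p was under 0.05. IFIT2, OASL, OAS1 and IFIT3 are filled throughout, ISG20 and ISG15 are open in 1 and 3 of the 4 fits, and OAS3 passes only without shNC replicate 2.

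Single genes that did not pass moved with 1 library as well. PARP14 was called higher without shNC replicate 1 (0.82, edgeR adjusted p = 0.0355), OAS3 and DDX58 without shNC replicate 2 (0.46 and 0.57, edgeR adjusted p = 0.0133 and 0.0409), and SAMD9 without shYY1 replicate 2 (0.58, edgeR adjusted p = 0.0192). In all, 5 effector genes rose without shNC replicate 1, 9 without shNC replicate 2 and 6 without either shYY1 library. The share of all tested genes called higher in those 4 fits was 5.42%, 10.98%, 2.21% and 2.23%.

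The rest of the pathway was described from lists of genes for its other steps. Of 21 interferon genes, 7 had a row, and all were near 0. IFNB1, which encodes interferon beta, was at 0 in all 4 libraries. IFNL1, a type III interferon, had 0 and 3 counts in shNC and 7 and 11 in shYY1, and IFNL3 had 0 in both shNC libraries and 9 and 3 in shYY1. IFNL2 had 5 counts and IFNW1 10, each in shYY1 replicate 1 alone, and IFNA1 had 2 in shNC replicate 1 alone. IFNE, an epithelial interferon, had 34 and 21 counts in shNC and 13 and 12 in shYY1, and as the only one tested it did not pass (log2 fold change -1.10 ± 0.796, SE; edgeR adjusted p = 0.451). The rest were too low to test in the main fit. IFNL1 and IFNL3 had both shYY1 libraries above both shNC libraries in CPM, and IFNE had the reverse, so no difference in an interferon gene was called.

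Of 18 genes for interferon receptors, JAK kinases, STATs and IRFs, 17 were tested, of which 1 fell and 16 missed the threshold, beside 4.90% of all tested genes called lower, a share near that of this list. Their median log2 fold change was -0.12, and -0.15 to -0.0036 with 1 library left out. Calls in this list changed with the library left out and went in both directions without shNC replicate 2. The gene that fell was STAT2, with 1850 and 2010 counts in shNC and 1341 and 1296 in shYY1 (log2 fold change -0.51 ± 0.107, SE; edgeR adjusted p = 0.0191). It did not pass without either shYY1 library (edgeR adjusted p = 0.0923 and 0.0884). JAK1, which all interferon receptors use, had a log2 fold change of -0.28 ± 0.0786 (SE; edgeR adjusted p = 0.0553). IRF9, a DNA-binding factor of the interferon response, had 33 to 48 counts per library, and IRF7 had 0 in both shNC libraries and 15 and 4 in shYY1.

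Of 20 listed genes for adaptors, kinases and sensors of nucleic acid, 17 were tested, of which 3 rose and 14 missed the threshold, beside 5.05% of all tested genes called higher. Their median log2 fold change was 0.03, and it ranged from -0.05 without shNC replicate 2 to 0.17 without shNC replicate 1. TRAF3, an adaptor between MAVS and TBK1, had 2068 and 1921 counts in shNC and 3461 and 3404 in shYY1 (log2 fold change 0.82 ± 0.0991, SE; edgeR adjusted p = 0.00198). CGAS, the sensor of cytosolic DNA, had 2578 and 3111 counts in shNC and 4363 and 4490 in shYY1 (0.68 ± 0.103, SE; edgeR adjusted p = 0.00543). Both passed with each library left out. TRIM25, a ubiquitin ligase for RIG-I, had a log2 fold change of 0.37 ± 0.0802 (SE; edgeR adjusted p = 0.0219), and did not pass without either shYY1 library (edgeR adjusted p = 0.109 and 0.274). None of 17 genes listed as negative regulators of interferon signalling, not all of them known only as such, passed edgeR's test. At an unadjusted p under 0.05 there were 5, beside 25.1% of all tested genes. The smallest adjusted p was that of IRF2BP2 (log2 fold change -0.35, edgeR adjusted p = 0.0514). In this list 1 gene rose and 1 fell without shNC replicate 2, and 1 fell without shYY1 replicate 2.

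Of 47 other genes listed as interferon-stimulated, 36 were tested, of which 4 rose and 32 missed the threshold, beside 5.05% of all tested genes called higher. Without either shYY1 library 1 of the 36 rose, beside 2.21% and 2.23% of all tested genes. The median log2 fold change was 0.14, and 0.10 to 0.22 with 1 library left out. APOL2, an apolipoprotein L, had 876 and 1031 counts in shNC and 1756 and 1583 in shYY1 (log2 fold change 0.85 ± 0.124, SE; edgeR adjusted p = 0.00465), and passed with each library left out. TAP1, a peptide transporter of antigen presentation, rose by 0.61 ± 0.14 (SE; edgeR adjusted p = 0.0291) but passed only without shNC replicate 2 among the 4 reduced fits. The aminopeptidase LAP3 (0.31, edgeR adjusted p = 0.0475) and ISG20L2 (0.38, edgeR adjusted p = 0.0143) did not pass without either shYY1 library. ISG20L2 was listed for its name, is a ribosome biogenesis factor and is not known as interferon-induced. GBP4, GBP5, CXCL11 and EPSTI1, which respond strongly to interferon in many cells, were at 0 in all 4 libraries.

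**Figure D5:**
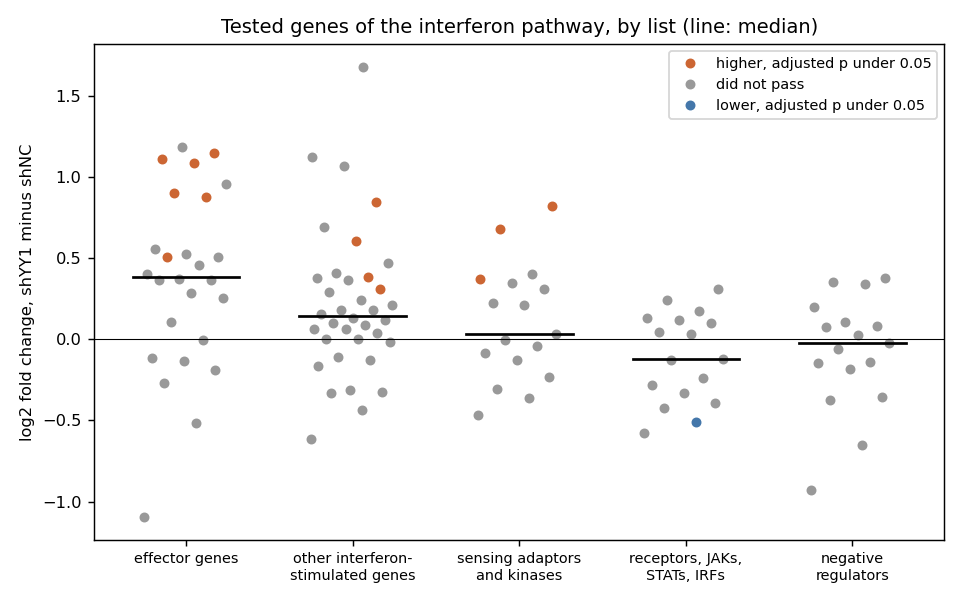
Log2 fold change of shYY1 over shNC (vertical axis) for tested genes of the effector set (26 with counts in both groups) and of 4 other pathway lists, 1 point per gene, with the median as a line. The median was 0.39 for the effector genes and lay between -0.12 and 0.14 for the other lists.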

How the data were processed

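The submitters' processing notes name Bowtie 0.12.2 and the mouse builds mm8 and mm9, which cannot describe a table of human gene IDs, so for this table the aligner, counter, build and strand setting were not given in the sources used here. The authors deposited 1 table of raw counts, all whole numbers, and FPKM values (scaled to gene length and library size) for each of the 4 libraries. The deposited gene spans lay on the same chromosome as in GENCODE 29 for all 37 genes and matched it exactly for 12, and the authors' FPKM implied gene lengths that differed between libraries by at most 1.03-fold (genes with 100 counts or more).

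The counts were scaled with TMM factors and tested with edgeR 4.0.16 (R 4.3.3, limma 3.58.1), by robust quasi-likelihood F-test without a replicate block. Genes passed filterByExpr with a minimum count of 10 and a minimum total of 15. Benjamini-Hochberg adjustment ran over all 18035 genes tested, with 0.05 as the threshold. The biological coefficient of variation was 20.2%, on 2 residual degrees of freedom. The replicate libraries were not duplicates (chi-square per gene 33.5 in shNC and 15.5 in shYY1). Alternatives were DESeq2 1.42.0, limma-trend on log2 CPM and on log2(FPKM + 1) or log2(FPKM + 0.1), other scalings and filters, a replicate block and each library left out.

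All 38 listed symbols were looked up and every one with a row is named, and the tested genes of the other lists were named where they passed or where a role asked for their level. PERP, ITGA6, SFN, the keratins, JAK1, IRF2BP2 and the genes of the other lists named as being at 0 were chosen after their values were seen. The members and the lists were chosen with earlier results of these data known, so no set test was run and no p was adjusted over a list. Floors of 3 counts cover counting error only. No table column of other samples was used. The table has no rows outside genes. One result is not reported here.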

Additional observations from a re-analysis of the deposited data

How the results depend on the processing

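Over 28 effector genes and 13 alternatives, 334 pairs of gene and alternative gave a value. Of these, 298 kept direction and side of the threshold, 16 newly passed, 12 no longer passed and 8 turned sign. MX1 and HERC5 are not counted for DESeq2, at least 1 CPM or either FPKM scale, nor ISG20 for either FPKM scale. These lost calls are outside the 12. IFIT2, IFIT3, OAS1 and OASL passed in all 13, with the largest adjusted p at 0.0057, 0.0201, 0.0165 and 0.0117. The number of effector genes that rose was 8, or 6 of the 26 with counts in both groups, since MX1 and HERC5 had to differ. With RLE factors or without the filter on low counts it was 9, the same 8 and OAS3. Library totals alone gave the same 8. With at least 1 CPM in 2 libraries or with limma-trend on log2 CPM it was 7, namely those 6 and OAS3. DESeq2 also gave 8, but these were the 6 with OAS3 and DDX58, without MX1 and HERC5. On either FPKM scale, where 18 were tested and ISG20, MX1 and HERC5 were not, the number was 5. It ranged from 5 to 9 with 1 library left out. The share of all tested genes called higher was 5.05% in the main fit, 5.18% with RLE factors and 3.82% with totals alone. It was 3.25% without the filter (33 effector genes tested) and 8.56% with at least 1 CPM (24 tested). With DESeq2 it was 8.15%, with limma-trend on log2 CPM 5.73%, and on the FPKM scales 6.68% and 6.58%. IFI44 was the 1 effector gene that fell on either FPKM scale. The median log2 fold change of the effector genes, 0.43, was 0.38 with totals alone, 0.37 without the filter, 0.35 with at least 1 CPM, 0.23 on log2(FPKM + 1), 0.31 on log2(FPKM + 0.1), and 0.44 to 0.48 with 1 library left out.

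None of the genes whose sign turned had passed the test. OAS2 (-0.003) was at 0.0026 with RLE factors, 0.0015 without the filter, 0.02 without shNC replicate 1, and between -0.71 and 0.47 with 1 library left out. With 1 library left out, DTX3L ranged from -0.24 to 0.011 (positive without shYY1 replicate 1), SAMD9 from -0.088 to 0.58 (negative without shYY1 replicate 1), IFIT5 from -0.25 to 0.010 (positive without shNC replicate 1) and HERC6 from -0.095 to 0.35 (negative without shNC replicate 2). The causes were not tested.

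Over all genes, 910 rose and 883 fell. DESeq2 called 1470 higher, and leaving out 1 library gave 425 to 2097 higher and 595 to 1207 lower. The share of calls that were higher, 50.8%, was 40.3% with totals alone (median of all genes -0.06), 44.2% and 43.9% on log2(FPKM + 1) and log2(FPKM + 0.1), and 37.2% to 63.5% with 1 library left out. The labels do not say that replicate numbers pair the libraries, and the replicate differences of the groups correlated at 0.0123 across genes. With the number as a replicate block 12 effector genes rose, MX1 and HERC5 among them. Over all genes, 1475 rose with that block (8.18% of those tested) and 1427 fell. Depth limits the 9 untested genes and MX1 and HERC5, which the FPKM scales and the filter at 1 CPM did not test.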
